A study of Mus musculus with 4 samples.

Results

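The circular RNAs described here are those that the deposited lists class as intron. A circular RNA (circRNA, or circle) is found from reads that cross a back-splice junction, where a downstream end is joined to an upstream one. The intron class was taken as deposited, from the type column of the 4 lists, with no other selection. It holds 1439 distinct circles of 13499 in the series, beside 11569 of the exon class and 491 of the intergenic class. Total RNA of lung tissue from C57BL/6 mice was sequenced at 4 stages of lung development, namely the pseudoglandular stage at embryonic day 14.5, the canalicular stage at embryonic day 16.5, the terminal sac stage at embryonic day 18.5 and the alveolar stage at newborn day 7.5. All libraries share the strain and tissue, and the labels name no treatment or allele and give no number of animals per library. With 1 library a stage there are no replicates, so each comparison is of 2 libraries and not of 2 stages. The intervals below are 95% intervals of counting error, and they can be too narrow, because PCR copies of 1 molecule count as separate reads.

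The 4 libraries listed 25983 to 36156 junction reads, the fewest in the pseudoglandular library. Genes that mark lung cell types were checked over circles of all classes. Sftpc, which encodes a surfactant protein of alveolar type 2 cells, had 0, 0, 376 and 521 junction reads in order of stage, and Pecam1, an endothelial adhesion molecule, had 3, 19, 22 and 39. Of the type 1 markers, Rtkn2 had 0, 0, 7 and 12 reads, and Ager and Hopx were at 0 in every library, as was the ciliated-cell marker Foxj1. Ttn, the titin gene of striated muscle, had 62 pseudoglandular reads, and the other libraries had 8 to 11. None of its reads came from an intron circle. Ryr2, the cardiac calcium-release channel, had 11, 0, 0 and 2 reads, and 4 of its pseudoglandular reads came from an intron circle described below. The part of these muscle genes in the results was not tested. In bulk tissue, fewer cells of a type and less RNA per cell cannot be told apart.

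A caller gives the intron class to a circle whose ends fall in introns of its annotation, and this covers several kinds of molecule. One is the intron lariat, which splicing makes when the first base of the intron is joined to a branch point close to the intron's end, and which can outlast the linear host RNA if it escapes debranching. Another is a circle made by back-splicing at a cryptic or unannotated splice site, so that exons and part of an intron are kept together. To tell these apart, the ends of each circle were set against the exons of its host gene in GENCODE release M21 (build mm10). The grouping was made after the data had been seen. An exon-free circle touches no exon of its host. An annotated end means that the upstream end is the first base of an exon, or the downstream end the last base of one. Lengths of circles are given as genomic spans from end to end. The lists give junctions only, so what a circle holds between its ends, and its RNA length, were not observed.

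Of the 1439 intron circles, 564 (39.2%) were exon-free, with 1675 junction reads. A larger group of 649 (45.1%), with 2621 reads, had 1 annotated end. Both ends were annotated in 47 (351 reads), and 177 (502 reads) overlapped an exon without an annotated end. The remaining 2 had no host in M21. Most members thus span exon sequence by this annotation, and those with 2 annotated ends join exon boundaries of it at both ends. Circles with 1 annotated end spanned a median of 3 whole exons and 580 exon bases, and 176 of the 649 spanned 1 exon. By comparison, 10161 of 11561 exon-class circles with a host in M21 (87.9%) had both ends at exon boundaries.

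Short sequences are shown where M21 exons reach the end of a circle, since they show which bases the junction uses. They were read from GENCODE M21 transcripts of build mm10, on the strand of the host gene and 5′ to 3′, and bases inside introns were not read. The first set is the annotated end of 5 of the most abundant circles, with the 3 bases next to the junction in capitals. Zranb1 (chr7:132948044-132950435, plus strand), Efnb2 (chr8:8639206-8641256, minus) and Rims1 (chr1:22346293-22393948, minus) are shown by their last bases. Galnt18 (chr7:111597803-111599123, minus) and Cacna1c (chr6:119002577-119057515, minus) are shown by their first bases.
Zranb1 last bases: tggctattcctcaatgcctgtgTGG
Efnb2 last bases: aagaacaaagattactacattaTAT
Rims1 last bases: agcacatcacagctcagccagaCAG
Galnt18 first bases: GTGccgcaacctctcgttccccgac
Cacna1c first bases: GTTccaactatgggagcccacgccc

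The second set is the end of the exon that lies just before a circle whose first base is the first base of an intron, with the last 2 exon bases in capitals. The circles are Lrp4 (chr2:91492098-91492325, plus strand), Ryr2 (chr13:11731777-11735470, minus), Rpl14 (chr9:120572863-120573550, plus), Hp1bp3 (chr4:138239649-138240590, plus), Gtf3c1 (chr7:125651158-125651862, minus) and Plek (chr11:16985619-16987455, minus). In these circles the exon itself is left out, and the junction starts at the base after the capitals.
Lrp4 exon before the circle: gccattggagtggatccgctggaAG
Ryr2 exon before the circle: gttccggtcaccaccgcaggagcAG
Rpl14 exon before the circle: acttcatcctcaagttcccacacAG
Hp1bp3 exon before the circle: agctgtccttcccctactaccctAG
Gtf3c1 exon before the circle: tcaggaaggaggatgagctgaatAG
Plek exon before the circle: caagcagggatgtttactgaagcAG

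Back-splicing by the spliceosome needs AG just before the circle and GT just after it on the transcribed strand. On the host strand, 90 intron circles had an upstream flank covered by an exon, which read AG in 73 and AC in 17. The downstream flank was covered in 155 circles and read GT in 125 and CT in 30. No other dinucleotide occurred. CIRI, the caller whose column names the lists carry, keeps junctions with these signals, so their presence is a property of the lists and not a result. AC and CT are the same signals read from the opposite strand, which was the case for 42 of the 230 circles with a readable flank (18.3%). All 42 had no annotated end. They were 38 of 92 exon-overlapping circles without an annotated end (41.3%) and 4 of 19 exon-free circles. With 1 annotated end it was 0 of 106. An annotated end lies at a splice site of the host strand, so this 0 follows from the grouping and is not a result. In the exon class 336 of 3986 circles with a readable flank (8.43%) had the signals of the opposite strand. They were 331 of 608 exon-overlapping circles without an annotated end (54.4%) and 5 of 7 exon-free circles. Within these groups the exon-class share was thus the higher one, and the pooled order does not hold there. By library the intron-class share was 20.3%, 15.6%, 13.5% and 23.5% of 64, 64, 74 and 51 circles in order of stage. All 11 circles that start at the first base of an intron follow an exon that ends in AG. The flank is shown in capitals for Ermard (chr17:15024103-15051264, plus strand) and Ascc3 (chr10:50718774-50748841, plus), whose last bases precede CT on the host strand.
Ermard last bases and flank: tagatacagggtttgaagccagcCT
Ascc3 last bases and flank: ttggaacagtacgagattccaacCT

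The series follows circRNAs through lung development, so the weight of the intron class was compared between stages. Intron circles held 1445, 1168, 1381 and 1159 junction reads in the pseudoglandular, canalicular, terminal sac and alveolar library. These are 5.56% of the pseudoglandular reads (interval 5.29 to 5.85), 3.74% of the canalicular (3.53 to 3.96), 3.82% of the terminal sac (3.62 to 4.02) and 4.09% of the alveolar (3.86 to 4.33). The pseudoglandular library stood above the other 3, whose intervals overlap in neighbouring stages. The canalicular share was 0.673 of the pseudoglandular one (0.622 to 0.727), and the alveolar share 0.736 of it (0.680 to 0.795). With the class taken from M21 instead (neither end inside a host exon), these ratios were 0.386 (0.337 to 0.440) and 0.608 (0.539 to 0.684). The next ratios were 1.02 (0.944 to 1.10) for the terminal sac over the canalicular library and 1.07 (0.990 to 1.16) for the alveolar over the terminal sac library, and both intervals include 1. Counted as circles, the class made up 457 of 4599 listed circRNAs (9.94%), 367 of 4947 (7.42%), 422 of 5564 (7.58%) and 356 of 4474 (7.96%) in order of stage. The library with the fewest listed junction reads thus listed the most intron circles.

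The difference between libraries lay mostly in the exon-free circles. They numbered 229, 97, 124 and 143 in order of stage, with 643, 267, 356 and 409 junction reads. Their share of all listed reads was 2.47% in the pseudoglandular library (2.29 to 2.67), 0.855% in the canalicular library (0.756 to 0.964), 0.985% in the terminal sac library (0.885 to 1.09) and 1.44% in the alveolar library (1.31 to 1.59). The canalicular share was 2.89-fold lower than the pseudoglandular one (2.50 to 3.35) and the alveolar share 1.71-fold lower (1.51 to 1.95). The ratio was 1.47 (1.27 to 1.69) for the alveolar over the terminal sac library and 1.15 (0.980 to 1.35) for the terminal sac over the canalicular library. Circles with 1 annotated end had shares of 2.35%, 2.28%, 2.13% and 1.86% of reads, with a ratio of 0.970 (0.869 to 1.08) for the canalicular over the pseudoglandular library and 0.791 (0.703 to 0.890) for the alveolar over the pseudoglandular. Circles with 2 annotated ends went the other way, with 110 alveolar and 47 pseudoglandular reads and a ratio of 2.15 (1.51 to 3.09).

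**Figure D1:**
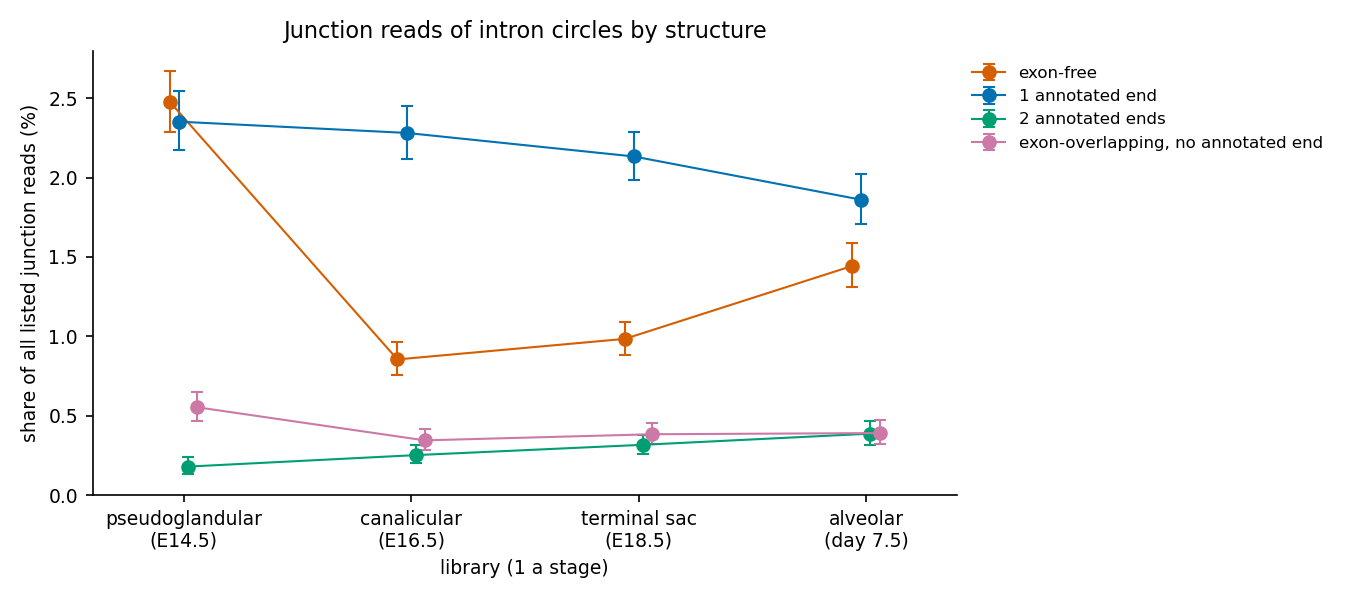
Share of all listed junction reads (%) held by each structural group of intron circles in the 4 libraries, in order of stage. Points are single libraries and bars exact 95% intervals; the exon-free share of the pseudoglandular library is 2.47%, and the other libraries have 0.855% to 1.44%.

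The pseudoglandular excess was spread over many hosts. Its 229 exon-free circles lay in 227 host genes, and the 10 with most reads held 12.6% of the reads. The 10 leading exon-free circles of the other libraries held 19.9% (canalicular), 19.7% (terminal sac) and 18.6% (alveolar). Of the pseudoglandular exon-free circles 105 had 3 or more reads, against 42, 53 and 61 in the later libraries in order of stage. Their median span was 646 bases, against 1092, 992 and 881 bases in the canalicular, terminal sac and alveolar libraries. With every library thinned to 25983 reads, the expected numbers of exon-free circles were 229, 78.1, 82.97 and 129 in order of stage.

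Exon-free intron circles were short and those with an annotated end long. The grouping itself favours this contrast, since a circle that touches no host exon has to fit between exons. The whole class ran from 49 to 422556 bases, with a median of 5146 against 10223 for the exon class. Under 1000 bases lay 387 circles (26.9%), against 8.44% of exon circles, and over 50000 bases lay 170 (11.8%), against 7.27%. Exon-free circles had a median span of 804 bases (quartiles 389 and 2102), and 314 of them were under 1000 bases. Circles with 1 annotated end had a median of 18779 bases (quartiles 7461 and 39859), those with 2 annotated ends 17905, and the exon-overlapping rest 5020. In each library the intron median lay below the exon median, by 2051 against 9850 bases in the pseudoglandular library, 8665 against 10413 in the canalicular library, 8233 against 10179 in the terminal sac library and 6097 against 9926 in the alveolar library. The mean difference of log10 medians, intron minus exon, was -0.266 (SD 0.283 over 4 libraries), negative in 4 of 4, with p = 0.125 in an exact two-sided sign-flip permutation test, the smallest p that 4 libraries allow. The SD exceeds the mean because the pseudoglandular difference was -0.681 and the others -0.0798 to -0.212, and without the pseudoglandular library the mean was -0.128. Among circles with 5 or more junction reads the mean was -0.0227 (exact sign-flip permutation test, p = 0.875), and the intron median was the higher one in the canalicular and terminal sac libraries.

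**Figure D2:**
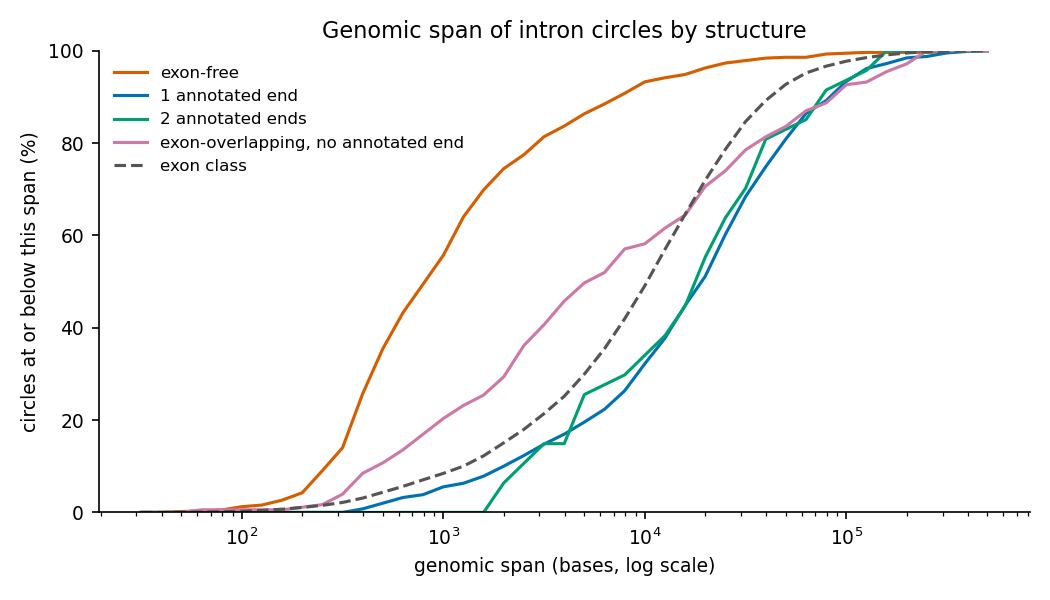
Cumulative share of distinct circles (%) against genomic span (bases, log scale), for the 4 structural groups of intron circles and for the exon class (dashed). The exon-free curve lies left of the others, with a median of 804 bases, and the curve for 1 annotated end lies right of the exon class, with medians of 18779 and 10223 bases.

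By genomic span, the longest intron circles came from Foxp1, a forkhead transcription factor of lung epithelium (422556 bases), and Cdk14, a cyclin-dependent kinase (375629). Next came Rbms3, an RNA-binding protein (332407). Each had 1 annotated end and was listed in 1 library, Foxp1 with 3 canalicular reads, Cdk14 with 3 alveolar reads and Rbms3 with 2 pseudoglandular reads. The shortest lay in Nr2c2, an orphan nuclear receptor (49 bases), Reep3, a protein of the endoplasmic reticulum (57), and Pth2r, a parathyroid hormone receptor (58). Nr2c2 had 2 alveolar reads, Reep3 had 2 pseudoglandular reads and Pth2r had 3 pseudoglandular reads. All 6 rest on 2 or 3 reads each.

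Of the 564 exon-free circles, 562 lay within 1 intron of the host. That intron had a median length of 23355 bases, of which the circle covered a median of 5.45%. The circle began a median of 6136 bases after the 5′ splice site and ended 8681 bases before the 3′ splice site. In 200 cases (35.6%) it was the first intron. Both ends lay 1000 or more bases from the splice sites in 410 of the 562 (73.0%). The deposited files do not give the bases at these ends.

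A start at the first base of the intron, as a lariat has, was found for 11 exon-free circles (1.96%) with 31 reads in all. A further 5 began 1 to 10 bases after it. CIRI keeps junctions with AG before and GT after the circle, so lariats without these bases would not be listed. The 1.96% is thus a share of the lists and does not show how common lariats are. Branch points were not identified. Of the 11, 9 ended within 60 bases of the 3′ splice site, a window chosen after the values had been seen. Another 8 circles ended in that window without starting at the first base. Gtf3c1, a subunit of an RNA polymerase III factor, left 1 base of the intron uncovered at its end. Plek, the pleckstrin of blood cells, left 6 and Lrp4, a receptor of the lipoprotein receptor family, left 19. Hk1 (hexokinase), Ryr2 and Rpl14 (a ribosomal protein) left 25 bases each, Hp1bp3 left 30, Nol9 31 and Zdhhc2 47. The other two, Mars and Helz, ended 76 and 297 bases before the splice site. The largest count was 5 reads for Lrp4, 3 canalicular and 2 alveolar, the one member of the 11 listed in more than 1 library. The libraries listed 6, 2, 3 and 1 of these circles in order of stage. Their hosts' introns were 247 bases (Lrp4) to 3719 bases (Ryr2) long.

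The junction ratio is the share of reads at the ends of a circle that cross the back-splice, as 2 times the junction reads over that plus the non-junction reads. The median ratio of intron circles was 0.129, 0.078, 0.095 and 0.083 in order of stage, against 0.019, 0.019, 0.024 and 0.022 for exon circles. Intron minus exon it was 0.0753 (SD 0.0238) and positive in 4 of 4 libraries, with p = 0.125 in the exact sign-flip permutation test. Again this was the smallest p possible. With at least 10 junction plus non-junction reads the mean difference was 0.0493. All 4 structural groups lay above the exon class in each library. Exon-free circles had median ratios of 0.25, 0.316, 0.306 and 0.25 in order of stage, with medians of 11 to 17 non-junction reads. With 1 annotated end the median ratio was 0.030 to 0.041 in the 4 libraries, with medians of 128 to 184 non-junction reads. With 2 annotated ends it was 0.034 to 0.045, and in the exon-overlapping rest 0.118 to 0.222. Exon-free circles thus had high ratios beside few non-junction reads. The exon class had medians of 307 to 389 non-junction reads, so the ratios of the groups rest on unlike denominators. No circle with under 2 junction reads is listed, which keeps the ratio from being low where non-junction reads are few. The ratios therefore do not show that exon-free circles are a larger share of their host's RNA.

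**Figure D3:**
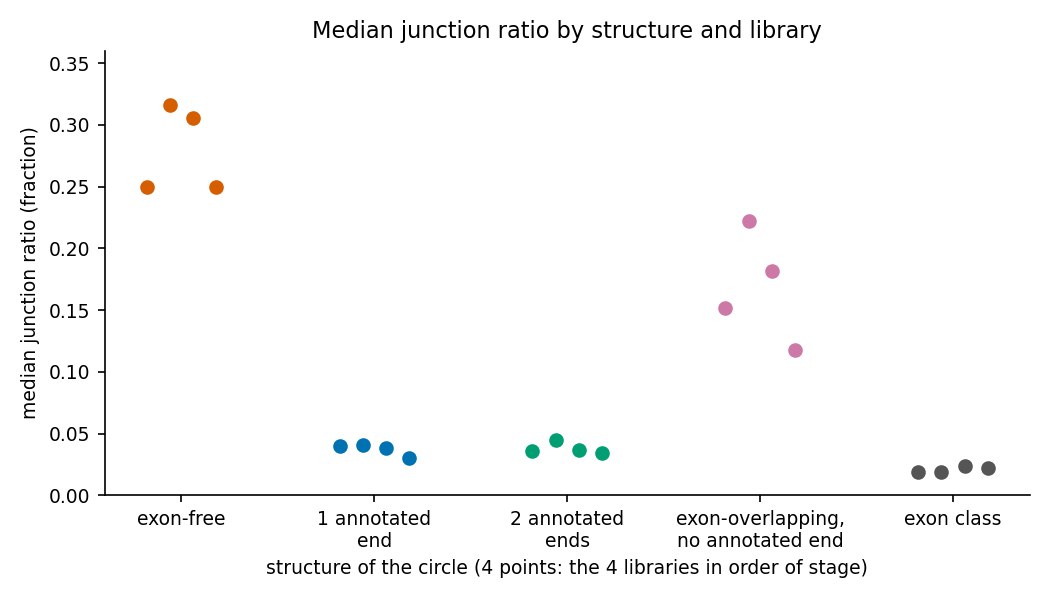
Median junction ratio (fraction, 0 to 1) by structure, with 1 point for each library in order of stage from left to right within a group. Exon-free circles sit at 0.25 to 0.316, circles with 1 annotated end at 0.030 to 0.041 and the exon class at 0.019 to 0.024.

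Circles with 20 or more junction plus non-junction reads in a library were ranked by the lowest such ratio of each circle. The highest by this ranking came from Rims1, a scaffold gene of the presynaptic active zone. The Rims1 circle reached 0.746, 0.958, 0.927 and 0.762 in order of stage, with 25, 23, 19 and 8 junction reads and 17, 2, 3 and 5 non-junction reads. Most reads at its ends were thus circular in every library. Gm13483, a long intergenic RNA gene, had a circle of 31339 bases at 0.524 in the canalicular library. Its circle of 51496 bases had 0.485 in the pseudoglandular library. Another, of 15945 bases, reached 0.611 in the terminal sac library but ranked lower, with 0.4 in the alveolar library. Ptprm, a receptor-type tyrosine phosphatase gene, had 0.542 in the pseudoglandular and 0.583 in the alveolar library. At the other end, circles of Pde5a and Limch1 had a ratio of 0.002 and those of Eif4b and Mylk 0.003. Each of these had 2 or 3 junction reads beside 1217 to 1848 non-junction reads. The App circle was tied at 0.003 in the alveolar library, with 9 junction and 5875 non-junction reads. Pde5a (a phosphodiesterase) and Mylk (myosin light chain kinase) are smooth muscle genes, Limch1 encodes an actomyosin regulator and Eif4b a translation factor.

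Intron circles were read less deeply than exon circles. Of the 1439, 757 (52.6%) had 2 junction reads over all libraries together, the lowest number listed, and 46 had 10 or more. The 12 most abundant held 729 of 5153 reads (14.1%). The mean log2 number of junction reads was 1.45, 1.47, 1.47 and 1.46 in order of stage, against 1.89, 1.96, 1.99 and 1.88 for exon circles. Intron minus exon it was -0.46 (SD 0.048), negative in 4 of 4 libraries (exact sign-flip permutation test, p = 0.125).

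Sharing between stages was low. Of the 1439 circles, 1323 (91.9%) had a place in 1 list, 83 were found in 2 libraries, 19 in 3 and 14 in all 4. Those 14 held 739 of the 5153 reads (14.3%). In the exon class 71.7% of circles were listed in 1 library and 7.55% in all 4. The share of a library's circles that another library also listed was 13.1%, 19.1%, 17.8% and 20.8% for the intron class in order of stage, against 52.6%, 53.2%, 50.7% and 52.8% for the exon class. Intron minus exon it was -34.6 percentage points (SD 3.33), negative in 4 of 4 libraries (exact sign-flip permutation test, p = 0.125). The libraries share these circles, so the 4 values are not independent.

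The gap was also present between circles with equal numbers of reads. Among circles with 2 reads in a library, another library listed 11.2% of intron and 32.0% of exon circles. At 4 to 5 reads the shares were 26.4% and 57.5%, and at 6 to 9 reads 52.8% and 81.3%. With 10 or more reads they were 89.2% (33 of 37 listings) and 95.7%. By structure, another library listed 8.60% of 593 exon-free listings and 6.52% of 184 exon-overlapping listings without an annotated end, against 24.7% of 760 listings with 1 annotated end and 44.4% of 63 with 2 annotated ends. In the pseudoglandular library 4.80% of exon-free circles were also listed elsewhere, against 11.3%, 9.68% and 11.9% in the later libraries in order of stage. Of the 14 circles in all 4 libraries, 11 had 1 annotated end, 2 had 2 and 1 was exon-free.

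**Figure D4:**
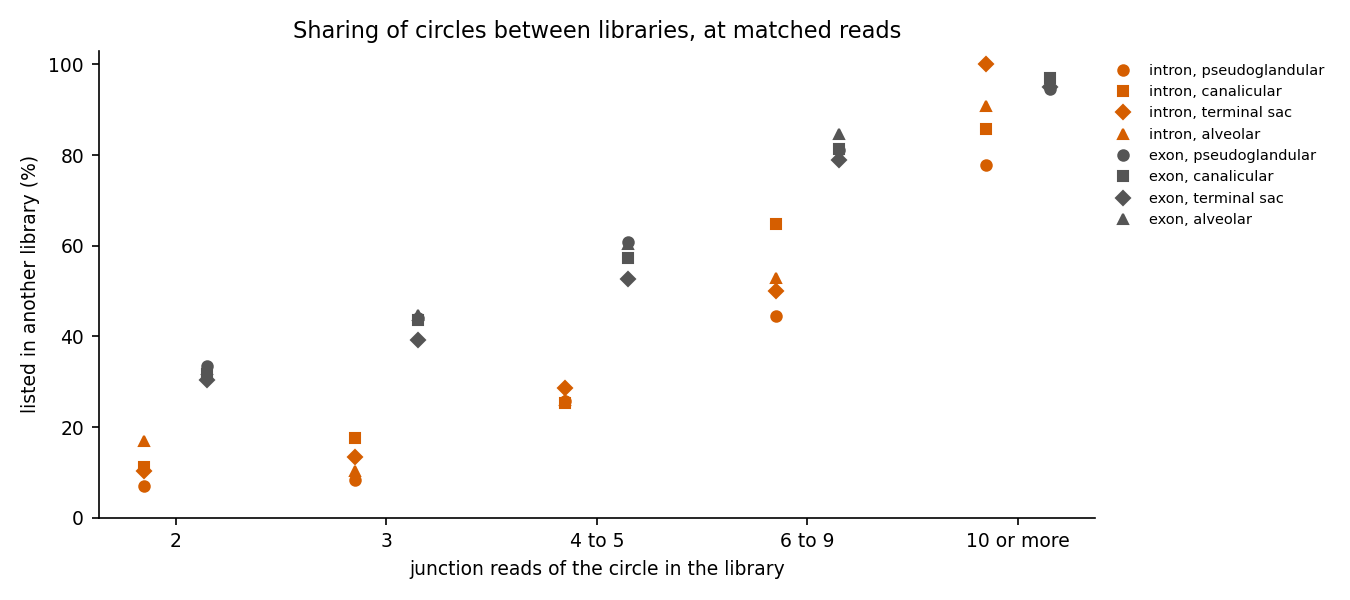
Share (%) of the circles listed in a library that another library also lists, by the junction reads of the circle in the first library. Orange marks are intron and grey marks exon circles, 1 mark for each library; at 2 reads the intron marks lie at 7.08% to 17% and the exon marks at 30.4% to 33.6%.

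The 1439 circles were assigned to 1057 host genes, of which 829 had 1 intron circle, 150 had 2 and 78 had 3 or more. Protein-coding genes made up 97.1% of the hosts. An exon circle came from 724 of the hosts (68.5%). Among hosts whose intron circles were all exon-free, 242 of 411 (58.9%) also had an exon circle, against 482 of 646 (74.6%) of the others. For 67 circles the files name more than 1 host, and reads of overlapping genes cannot be told apart there. An end was shared with an exon circle by 374 of 649 circles with 1 annotated end (57.6%), and by 1 of 564 exon-free circles. The low number for exon-free circles follows from the grouping, since they touch no host exon and most exon circles end at exon boundaries. In circles with 1 annotated end, the annotated end was the downstream end in 407 (62.7%) and the upstream end in 242. In the exon class the order was reversed, with 291 downstream and 490 upstream.

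Rere, a transcriptional co-regulator, hosted the most intron circles, 12 with 42 reads, beside 21 exon circles with 641 reads. Of the 12, 11 had 1 annotated end, and 6 of them began at the same base of chromosome 4 (150395209) and ended at 6 different places. Cacna1c, which encodes the pore-forming subunit of an L-type calcium channel, hosted 8 with 83 reads, 5 of which shared the base at 119057515 of chromosome 6. Rbms3 hosted 7 with 15 reads, none with over 3 reads, spanning 2719 to 332407 bases. Zeb1, a transcription factor of epithelial-mesenchymal transition, hosted 6 with 131 reads, and Gm13483 hosted 6 with 62 reads and no exon circle. Rora, a nuclear receptor gene, also had 6, all exon-free, with 0, 6, 13 and 3 reads in order of stage and no exon circle.

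Host genes were also counted by 11 lists of genes. Over all genes with an exon circle, 16.9% of 4287 also hosted an intron circle. By the same count it was 10 of 28 chromatin, 5 of 16 endothelial, 3 of 6 cardiac muscle, 5 of 24 mesenchyme and matrix, 7 of 22 RNA-binding and 7 of 29 signalling genes. It was 4 of 21 cell-cycle, 4 of 12 epithelial, 4 of 7 smooth muscle, 2 of 9 immune and 2 of 4 neural genes. The counts that follow are over all genes of a list, with or without an exon circle. Chromatin regulators had 11 hosts of 31 genes, with 26, 27, 42 and 38 reads in order of stage, led by the histone methyltransferase gene Ash1l (50 reads), Rere (42) and the cohesin gene Stag1 (14). Endothelial genes had 7 of 18, with 11, 4, 7 and 16 reads, led by Egfl7, a secreted angiogenic factor (11 reads). Cardiac muscle genes had 3 of 11, with 24, 26, 15 and 35 reads, of which Cacna1c gave 83 and the sodium-calcium exchanger Slc8a1 gave 13. Mesenchyme and matrix genes had 6 of 30, with 13, 2, 6 and 15 reads, led by fibronectin (Fn1, 12 reads) and Ltbp1 (11 reads). RNA-binding genes had 7 of 29 with 44 reads, signalling genes 9 of 38 with 27 reads, and cell-cycle genes 4 of 27 with 18 reads. Epithelial genes had 4 of 26 with 4, 3, 6 and 8 reads, led by Foxp1 (12 reads). Smooth muscle genes had 4 of 14 with 0, 4, 7 and 6 reads, and immune genes 4 of 14 with 0, 7, 6 and 0. Neural genes had 4 of 14 with 10, 0, 0 and 0 reads, Erbb4 and Magi2 with 3 pseudoglandular reads each among them. A list at 0 in a library had no intron circle with 2 or more reads there.

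The most abundant intron circle came from Zranb1, a deubiquitinase gene, with 41, 30, 27 and 16 junction reads in order of stage. It spans 2392 bases, ends at an annotated exon end and starts in intron sequence, and the files name the overlapping gene Fgfr2 as a host as well. Its reads were fewest in the alveolar library, and its junction ratio was 0.241, 0.187, 0.169 and 0.098. Zeb1 followed with 26, 21, 37 and 29 reads for a circle of 72040 bases with 2 annotated ends (chromosome 18, 5633204 to 5705243). Rims1 had the 25, 23, 19 and 8 reads given above, lowest in the alveolar library.

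Gm21992, which overlaps the splicing regulator gene Rbm4, had 17, 19, 26 and 10 reads, beside 118, 134, 147 and 110 for the leading exon circle that shares an end with it. The glycosyltransferase gene Galnt18 had 3, 8, 25 and 24 reads for a circle of 1321 bases with 1 exon, higher in the later pair of libraries. App, the amyloid precursor gene, had 5, 13, 22 and 9 reads at junction ratios of 0.003 to 0.012, with 1931 to 5875 non-junction reads at its ends. Its counts were highest in the terminal sac library, and the exon circle that shares an end with it had 24, 58, 37 and 48 reads.

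Cacna1c had 11, 10, 5 and 17 reads, and the leading exon circle that shares an end with it had 69, 53, 51 and 70. Efnb2, an ephrin ligand of arterial endothelium, had 5, 5, 9 and 23 reads, most in the alveolar library. Ash1l had 5, 4, 8 and 12 reads, Gm13483 had 3, 7, 11 and 5 and the protease gene Tasp1 had 5, 3, 6 and 7. Nfat5, a transcription factor of the osmotic stress response, had 6, 3, 12 and 7 reads at junction ratios of 0.5, 0.857, 0.96 and 0.609. It was the exon-free circle found in all 4 libraries, with 573 bases within an intron of 13530. A further Cacna1c circle of 16589 bases had 3, 2, 2 and 3 reads.

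**Figure D5:**
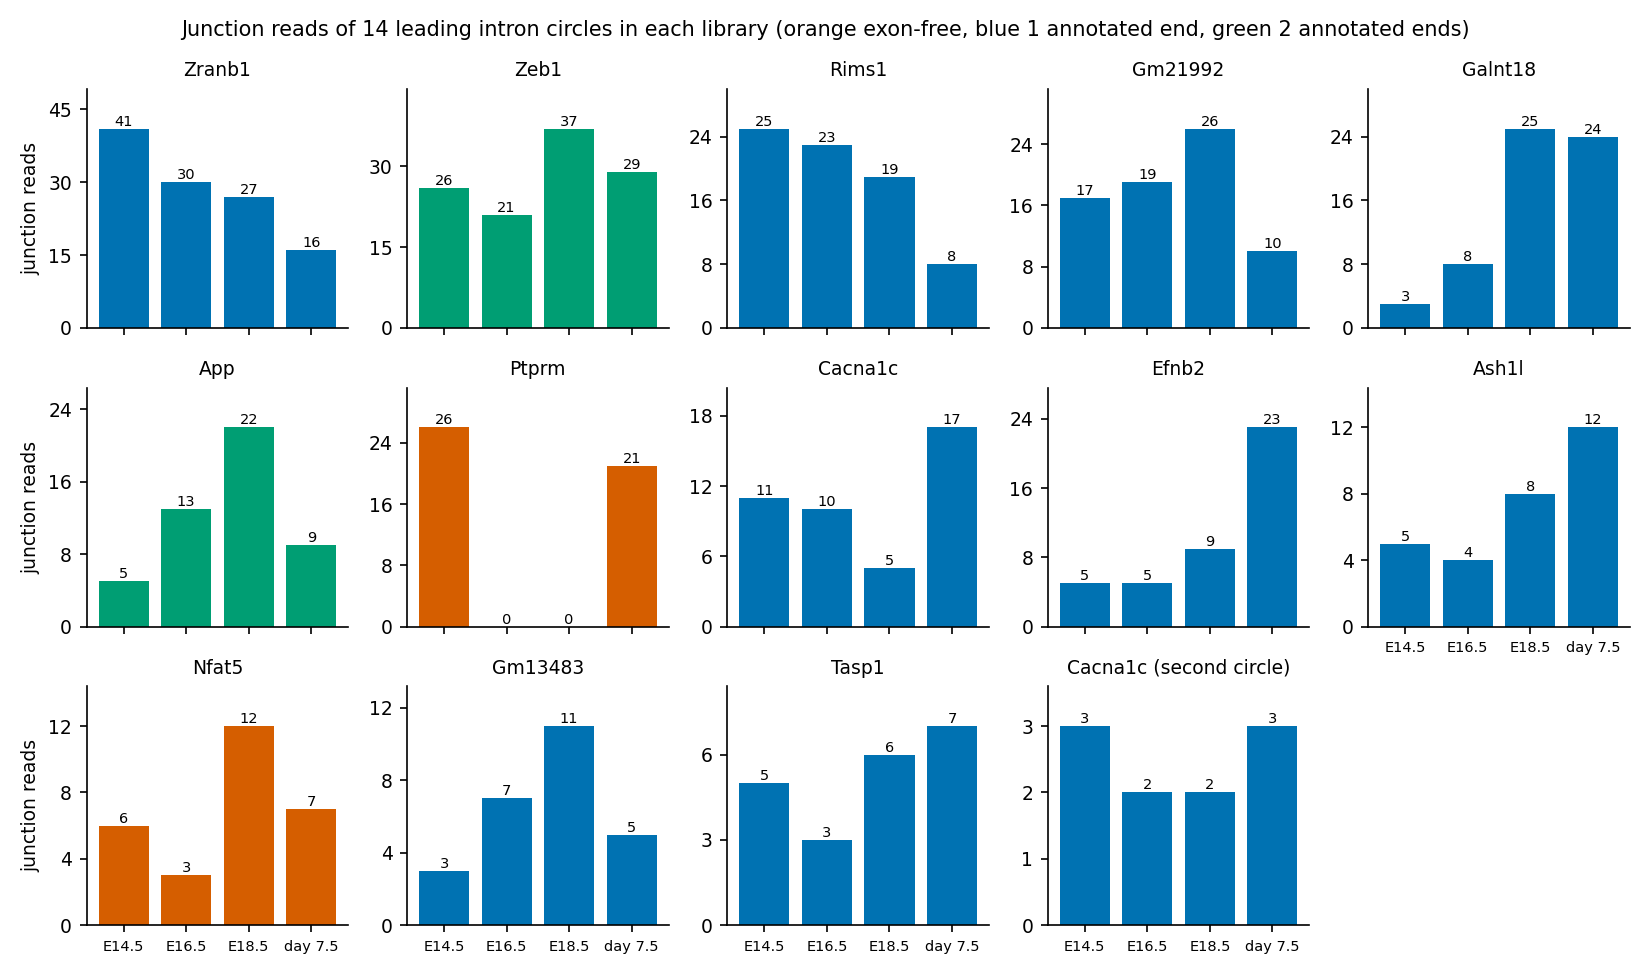
Junction reads of 14 leading intron circles, 1 panel for each circle and 1 bar for each library in order of stage (embryonic day 14.5, 16.5 and 18.5 and newborn day 7.5). Each panel has its own scale from 0; Zranb1 runs 41, 30, 27 and 16, while Ptprm has 26 and 21 reads in the first and last library and is not listed in between.

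Circles whose junction reads in 2 libraries summed to at least 10 were compared between them, by the ratio of their shares of listed junction reads. A circle was called when the ratio was 2-fold or more and its exact interval excluded 1. A circle that a library does not list was set to 3 reads there, and its fold is written as at least that value. Such a bound assumes at most 3 unlisted reads. A circle listed in only 1 library of a pair passed the minimum of 10 reads through that library alone. Shares are scaled by library totals, so the same counts can be called in 1 direction and not in the other.

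For the alveolar against the pseudoglandular library, 20 intron circles could be compared. Of these 2 were called higher, against a background of 12.2% of 933 circRNAs of all classes, and 4 lower, against 17.4%. Galnt18 had 24 alveolar and 3 pseudoglandular reads and was 7.34-fold higher (2.23 to 38.1). Efnb2 had 23 and 5 reads and was 4.22-fold higher (1.57 to 14.2). Zranb1, with 16 alveolar and 41 pseudoglandular reads, was 2.79-fold lower (1.53 to 5.33), and Rims1, with 8 and 25 reads, was 3.41-fold lower (1.49 to 8.74). Gpc6, a glypican gene, and Fstl1, which encodes a secreted follistatin-like glycoprotein, were not listed in the alveolar library and had 11 pseudoglandular reads each, at least 3.998-fold lower. Both lost the call under scaling by the median of ratios or by non-junction reads. The 11 Gpc6 reads had 3 distinct alignment patterns. Scaled by the median of ratios, the calls over all classes were 147 higher and 128 lower in place of 114 and 162, and the median log2 ratio of all circRNAs was 0.071 in place of -0.12.

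For the canalicular against the pseudoglandular library, 16 intron circles could be compared. None was called higher, by this rule or under any other scaling tried, against a background of 8.16% of 1017, and 3 were called lower, against 9.83%. Ptprm was not listed in the canalicular library and had 26 pseudoglandular reads, at least 10.4-fold lower. Gpc6 and Fstl1 were at least 4.41-fold lower, again from 11 pseudoglandular reads each. No circle called lower was listed in the canalicular library, so all of them passed the read minimum through the pseudoglandular library alone. In reverse, a Gm13483 circle had 11 canalicular reads and no pseudoglandular listing. It was at least 3.05-fold higher but not called, as its interval (0.806 to 17.04) includes 1. The same 11 reads were thus called only as lower, and the numbers called higher and lower are not an even contrast. Scaled by non-junction reads, the calls over all classes were 130 higher and 76 lower in place of 83 and 100, and the median log2 ratio was 0.25 in place of 0.070. The Ptprm circle is exon-free, with 542 bases in the first intron, and its 26 reads showed 13 alignment patterns.

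Between the terminal sac and canalicular libraries 23 intron circles could be compared. Called higher were 2, against a background of 8.94% of 1208, and 2 were called lower, against 11.2%. Of the 2 higher circles, the one from Galnt18 had 25 terminal sac and 8 canalicular reads and was 2.70-fold higher (1.18 to 6.92). Ogdh, which encodes a citric acid cycle dehydrogenase subunit, had 2 terminal sac and 9 canalicular reads and was 5.21-fold lower (1.08 to 49.6), beside 9 pseudoglandular reads and no alveolar listing. A Gm13483 circle of 31339 bases was not listed in the terminal sac library and had 11 canalicular reads, at least 4.25-fold lower.

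Across birth, 19 intron circles could be compared between the alveolar and terminal sac libraries. Called higher were 5, against a background of 10.5% of 1123, and 0 lower, against 11%. Efnb2 had 23 alveolar and 9 terminal sac reads and was 3.26-fold higher (1.45 to 8.01). Cacna1c had 17 and 5 reads and was 4.34-fold higher (1.54 to 15.04). Ptprm (21 alveolar reads), Aff3, a nuclear transcription regulator (11 reads), and Pip4k2a, a phosphoinositide kinase gene (10 reads), were not listed in the terminal sac library and were at least 8.93-fold, 4.68-fold and 4.25-fold higher. These 3 passed the read minimum through the alveolar library alone. That library had the smaller total, 28332 against 36156 listed junction reads, which favours calls of unlisted circles as higher. The numbers called higher and lower are thus not an even contrast. The Aff3 circle had 5 canalicular reads as well. The leading exon circle that shares an end with it had 63 alveolar and 77 terminal sac reads. For Cacna1c, the leading exon circle had 70 alveolar and 51 terminal sac reads. Scaled by the median of ratios, the calls over all classes were 141 higher and 92 lower in place of 118 and 123, and the median log2 ratio was -0.050 in place of -0.23.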

How the data were processed

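Total RNA of lung from 4 stages was extracted with TRIzol, per the labels' protocols, and gave 1 library a stage. Build mm10, BWA, cutadapt, HISAT2 2.0.5, HTSeq and StringTie appear, without roles, per the submitters' processing notes. Raw counts of junction and non-junction reads per circRNA were deposited, and the junction ratio was deposited by the authors as a fraction. Column names match the caller CIRI. The ratio was recomputed with 0 mismatches at a tolerance of 0.0006. No listed circle has under 2 junction reads, and other filters are not given in the sources used here. A blank non-junction count was read as 0 (43 intron listings). The read names of all libraries give 1 flow-cell lane.

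Hosts are the deposited identifiers, 1099 of 1101 of which are in GENCODE M21. Where a circle has several, the host whose exon ends it matches was used. Shares carry exact Clopper-Pearson intervals and ratios exact conditional binomial intervals at 95%. Scripts were tested on simulated data. Circles named are the 12 with most reads, those in all 4 libraries, those called, the 5 leading hosts and the 3 longest and 3 shortest. The 4 highest and 4 lowest ratios and up to 3 members of each list are named too. Ratios were ranked by the lowest of each circle, with ties at 3 decimals broken by junction position. 1 circle that this rule names is not reported here. Rora, the listed lariat-like starts and the circles with printed ends were added after their values were seen. The members, lists and tests were chosen with earlier results of these data known. Calculations used Python 3.11.15, numpy 2.4.6, pandas 2.3.3, scipy 1.17.1 and matplotlib 3.10.9.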

Additional observations from a re-analysis of the deposited data

How the results depend on the processing

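Under other settings most results were counted as the same, 88 of 99 values for the comparisons and 50 of 54 for single circles. Ratios of shares had to keep their side of 1 and whether the interval excluded 1 (the threshold). Paired differences had to keep their sign only, so the span difference of -0.0227 with 5 or more reads, against -0.266, counts as the same. Small changes in the number of calls did too, such as 3 higher calls in place of 2 for the alveolar over the pseudoglandular library. With the intron class taken from M21 (neither end inside a host exon), the ratio of shares of reads became 1.17 for the terminal sac over the canalicular library and 1.35 for the alveolar over the terminal sac library, both past the threshold. Without few-pattern circles (10 or more reads in a library and at most 0.5 patterns a read, here those of Ptprm and Gpc6) the ratio for the alveolar over the terminal sac library was 1.15, also past it. The ratio of shares of listed circRNAs for the terminal sac over the canalicular library turned to 0.958 when thinned to the smallest library and to 0.970 with 3 or more reads, against 1.02, with intervals that include 1 in each case. Lower calls for the alveolar over the pseudoglandular library came to 2 with scaling by the median of ratios, 2 with scaling by non-junction reads and 2 with 20 or more reads in the pair. That minimum also left 1 lower call for the canalicular over the pseudoglandular library, 0 lower for the terminal sac over the canalicular and 3 higher for the alveolar over the terminal sac. The causes were not tested, apart from the fewer circles that this minimum leaves.

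The exon-free results were added after seeing the data, and their ratios under 3 or more reads, the basic transcript set and without few-pattern circles kept their side of 1 and their call. Leaving out each library in turn gave mean differences of -0.328 to -0.128 for log10 span, 0.0637 to 0.0807 for the junction ratio, -0.48 to -0.45 for log2 reads and -34.3 to -30.6 percentage points for sharing. With 3 libraries the smallest exact p is 0.25. Direct repeats at the ends could not be searched, since bases inside introns were not read. No paired analysis between stages was possible because each stage has 1 library and the replicate number only names it. The sign-flip tests pair intron with exon circles within a library. Depth limits what is listed: with 2 reads as the minimum, a circle that a library does not list may still be present in it.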
